A study of Mus musculus with 16 samples.

Results

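Gene expression in the whole brain was compared between 4 Slc5a8-deficient and 4 wild-type male mice at 18 months of age. The 8 arrays were chosen by their sample titles from a series of 16, in which the other 8 came from deficient and wild-type mice at 4 months, 4 of each. Every animal is given as C57BL/6J and untreated, in labels whose strain and age values are interchanged, and each one-colour Agilent whole-genome array was hybridised with Cy3-labelled total RNA. Per the series design, the 4 arrays of each group are biological replicates. Neither the kind of Slc5a8 allele nor the origin of the wild-type mice (littermates or a separate colony) was given in the sources used here. All deficient arrays lay on one slide and all wild-type arrays on another, and each age filled its own row of a slide, so genotype, slide and slide row cannot be told apart in any difference below.

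Slc5a8 encodes a sodium-coupled transporter that carries lactate, pyruvate, ketone bodies and short-chain fatty acids into cells. In the brain it is known as a neuronal carrier of monocarboxylates, which neurons can burn in place of glucose, and it acts beside the proton-coupled Slc16a family. Short-chain fatty acids that enter by this route can inhibit histone deacetylases. Brain at 18 months is that of an ageing mouse, in which microglia, astrocytes and myelin are known to change.

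Levels are log2 processed signals minus the array's 75th percentile of them, so a level of 0 is that of a fairly bright probe. Differences are deficient minus wild type on that log2 scale, with the standard error of limma's fit to all 16 arrays (n = 4 in each group). The words rose, fell and called are kept for genes whose Benjamini-Hochberg adjusted p, taken over 23121 tested genes, was under 0.05. Between 60.3% and 63.9% of the spots on the 8 arrays were well above background, and the 75th percentiles ran from 774 to 1269 units of processed signal. The first principal component of the 8 arrays, with 34.1% of the variance, separated the genotypes, and wild-type array 2 stood apart from the other wild-type arrays on the second (44.64 against -26.89 to -9.886). All 28 neuronal and presynaptic genes, all 20 astrocyte genes and all 31 myelin genes listed were well above background on all 8 arrays.

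The targeted transcript itself was too dim to check the labels. The only Slc5a8 probe (NM_145423, chr10:88391888-88391947, plus strand, mm9, spotted 10 times) starts at base 4958 of the transcript and was well above background on 0 of the 16 arrays. Its level was -7.50, -6.71, -7.85 and -7.90 in old deficient brain and -7.11, -6.85, -7.23 and -6.98 in old wild-type brain. Deficient array 2 was the highest of the 8 and the other 3 deficient arrays were the lowest. The difference of -0.45 gave p = 0.2 in an exact two-sided permutation test, where 0.0286 is the smallest value that 4 against 4 arrays can give. Without deficient array 2 the difference was -0.71 with an exact p of 0.0286. Whether the probe lies in a deleted part of the gene was not given, so neither value checks a genotype.

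At 18 months 340 of the 23121 genes were called, or 1.47% of those tested. Of these, 211 (0.913% of those tested) were higher in deficient brain and 129 (0.558%) were lower. The share of calls that were higher was 62.1%, but it was 48.7% when each array was centred on its median, a scaling that moved the median difference of all genes from 0.0066 to -0.0522. The median size of a called difference was 0.960, and 158 called genes differed by more than 2-fold. For 333 called genes the 4 arrays of one genotype all lay above the 4 of the other, which also held for 4.45% of all tested genes in the higher direction and 3.64% in the lower. Without filtering by adjusted p, 2291 genes had p under 0.05 in the same limma fit. Of the 340, 210 carried a gene symbol and the rest clone or model names.

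Fam205a2, a protein-coding gene on chromosome 4 whose function is not established, gave the smallest p among the genes that fell and have a symbol other than a clone or model name. Its level was -2.17, -2.13, -2.19 and -2.11 in old deficient brain and 1.27, 1.35, 1.38 and 1.44 in old wild-type brain. Each group spanned less than 0.2 and the gap between them was more than 3 log2 units. It fell by 3.51 ± 0.16 (adjusted p = 2.7e-09). In the 8 young brains its level lay between -1.78 and -0.81 in both genotypes, so that the old wild-type arrays were the highest of the 16 and the old deficient arrays the lowest. The array reports it by 4 separate probes, and the central 30 bases of each are shown because 3 of them gave the fall and 1 did not.
Fam205a2 at 3654 (chr4:41842107-41842166, mm9): agatgaagagcaaagcacacacggagccat
Fam205a2 at 3385 (chr4:41841838-41841897, mm9): ggacatggaagacagtcaaagcaaggaatc
Fam205a2 at 3263 (chr4:41841716-41841775, mm9): tcctcactacaggcccaaacctttcatctt
Fam205a2 at 145 (chr4:41836929-41836988, mm9): gaattaccaaggattgaaatgtgaacatag
The number after the name is the first transcript base of the 60-base probe, and all 4 lie on the plus strand. The probes at 3654, 3385 and 3263 differed by -3.51, -3.41 and -2.84, each with adjusted p under 1e-08. The probe at 145, near the start of the transcript, differed by -0.65 ± 0.21 (adjusted p = 0.2 in limma's fit to all kept probes). Fam205a2 lies in a stretch of chromosome 4 with near-identical copies of it and of Ccl19, so the copy that gave the signal is uncertain.

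Among genes with a symbol that rose, the greatest differences between brains where both genotypes were well above background on every array were those of Fam227b, Zfp963, Ccr6 and Ocel1. Zfp963, a zinc finger protein on chromosome 8, read -1.95, -1.15, -1.23 and -2.07 in deficient brain against -4.49, -4.47, -4.67 and -4.36 in wild type, a rise of 2.89 ± 0.25 (adjusted p = 1.1e-05). Ccr6, which binds the chemokine Ccl20, read -1.06, -1.79, -2.20 and -1.32 against -4.14, -4.89, -3.26 and -4.96, a rise of 2.72 ± 0.38 (adjusted p = 0.0014). Fam227b read -0.55, -0.85, -0.30 and -0.72 against -3.43, -4.31, -3.45 and -3.78. A second Fam227b probe differed by 2.89 beside 3.14 for the first.

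Several surface and secreted proteins were among the rises. Ntn4, a netrin of basement membranes, rose by 1.82 ± 0.13 (adjusted p = 1.8e-06), from -4.82, -4.87, -4.47 and -4.57 in wild type to -2.85, -2.80, -2.61 and -3.18. Itga9, an integrin alpha subunit, rose by 1.5, Fxyd2, a regulator of the sodium pump, by 1.58, and Il12rb1, a chain of the interleukin-12 receptor, by 1.70. Ephb4, a receptor of ephrins, rose by 0.70 ± 0.08, and Inhba, the beta A subunit of activin, by 1.02 ± 0.15. Lpl, the lipoprotein lipase that frees fatty acids from circulating lipoproteins, rose by 1.36 ± 0.23 (adjusted p = 0.0065). A second probe of Il12rb1 that starts at base 1800 differed by only 0.14, against 1.70 for the probe at 2810. Second probes of Ephb4 and Lpl differed by 0.24 and 0.60 and were not called (adjusted p = 0.804 and 0.171 in limma's fit to all kept probes), whereas that of Fxyd2 rose by 1.64.

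Among other rises, the linker histone H1f2 was higher by 1.27, the transcription factor E2f2 by 1.12, the vitamin C transporter relative Slc23a3 by 1.38 and the acetyltransferase Nat8 by 0.82 ± 0.09 (adjusted p = 0.00014). Nat8 read 1.30, 1.31, 1.23 and 1.34 in deficient brain against 0.57, 0.30, 0.60 and 0.42. Its deficient arrays thus differed from each other by about 0.1 and from every wild-type array by over 0.6. Timp1, an inhibitor of matrix metalloproteinases that reactive astrocytes make, rose by 1.11 ± 0.20 (adjusted p = 0.0085). It read -2.21, -1.77, -2.32 and -2.41 against -3.14, -3.69, -3.03 and -3.26.

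A small number of called genes were well above background on all 4 arrays of one old group and on none of the other (16 higher and 4 lower in deficient brain). A probe could be kept for its signal in 1 group alone, so this contrast rests on the filter and the call. The share of all tested genes with the same pattern was not counted. For these called genes the fold is a lower bound, taken against the higher of the dim probe's own level and the lowest bright level on each array. Opn4, the melanopsin of light-sensing retinal ganglion cells, was at least 3.69-fold higher in deficient brain, Ttll2, a tubulin tyrosine ligase relative, at least 4.21-fold higher and the non-coding Arhgap33os at least 4.51-fold higher. Vmn1r104, a vomeronasal receptor of the Vmn1r family, was at least 8.26-fold lower, with wild-type levels of -3.68, -4.50, -2.20 and -1.52 and deficient levels between -8.15 and -7.87. Slc25a41, a mitochondrial carrier, was at least 6.24-fold higher, but its call was lost on leaving out any 1 of the 8 old arrays (adjusted p 0.0519 to 0.0797).

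**Figure D1:**
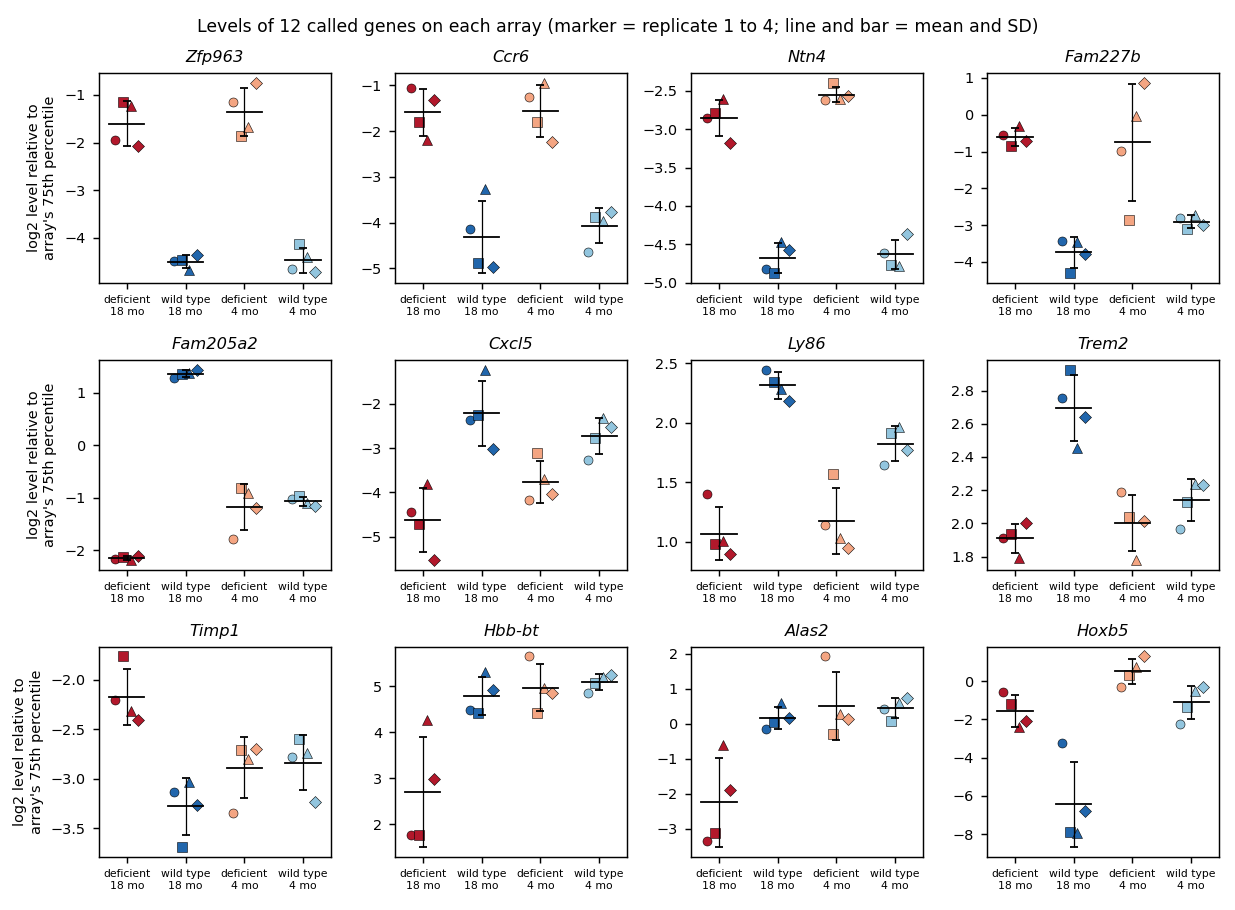
Each panel plots the log2 level of 1 called gene relative to the array's 75th percentile, on the vertical axis, for the deficient and wild-type groups at 18 and 4 months; marker shapes are replicates 1 to 4, lines and bars the mean and SD. Fam205a2 at 18 months shows the 4 wild-type arrays between 1.27 and 1.44 and the 4 deficient arrays between -2.19 and -2.11, while Hbb-bt and Alas2 are most widely spread among the old deficient arrays.

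Most homeostatic microglia genes read lower in old deficient brain, and few passed the test. Of 25 homeostatic microglia genes, 2 fell, 0 rose and 22 had a negative difference, with a median of -0.26 beside 0.0066 over all genes. The share of all tested genes that fell was 0.558%, and 51.3% had a positive difference. In 10 of the 25 the 4 deficient arrays all lay below the 4 wild-type arrays, against 3.64% of all tested genes. Ly86, the partner of the toll-like receptor relative Cd180, fell by 1.24 ± 0.14 (adjusted p = 0.00023), from 2.45, 2.34, 2.28 and 2.18 in wild type to 1.40, 0.98, 1.0 and 0.89. Trem2, a lipid-sensing receptor of microglia, fell by 0.78 ± 0.11 (adjusted p = 0.0022), from 2.76, 2.93, 2.45 and 2.64 to 1.91, 1.94, 1.79 and 2.0. The wild-type arrays lay above the deficient arrays without overlap in both genes. Ly86 lies in a stretch of neighbouring calls on chromosome 13, where 3 of 8 tested genes were called.

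The remaining microglia genes did not pass the test. Differences were -0.26 for Aif1, -0.53 for P2ry12, -0.37 for Tmem119, -0.35 for Tyrobp, -0.17 for Csf1r and -0.22 for Cx3cr1. The median level of the 25 genes, each relative to its mean over 16 arrays, was -0.09, -0.04, -0.06 and -0.05 on the deficient arrays and 0.25, 0.31, 0.09 and 0.21 on the wild-type arrays. The young groups lay between -0.23 and 0.04, so the old wild-type arrays were the ones that stood above the rest. With any 1 of the 8 old arrays left out, the list's median stayed between -0.29 and -0.22. In RNA of a whole brain, fewer cells of a type and less RNA per cell cannot be told apart. Of 27 disease-associated microglia genes only Lpl was called, as a rise, and the list's median was -0.04. Trem2, which fell, was counted in the homeostatic list and not in this one, so the 0 falls here depend on that placing. Of 13 macrophage genes of the brain's borders, 11 differences were positive, beside 51.3% of all genes tested. Only F13a1, the A chain of coagulation factor XIII, was called, and it rose by 0.54. F13a1 lies in the same stretch of chromosome 13 as Ly86. Its call was lost in the fit to the 8 old arrays alone and without deficient arrays 1 and 2 (adjusted p up to 0.174).

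Blood cell genes were lower in 3 of the 4 old deficient brains. Of 13 red blood cell genes 3 fell (the beta-globin genes Hbb-bt and Hbb-b2, and Alas2, the first enzyme of haem synthesis in red cell precursors), 0 rose, and 11 had a negative difference, with a median of -1.44. Over all genes 0.558% fell and 51.3% had a positive difference. Hbb-bt read 1.76, 1.78, 4.26 and 3.0 in deficient brain and 4.49, 4.42, 5.32 and 4.92 in wild type, and fell by 2.09 ± 0.44 (adjusted p = 0.027). Alas2 read -3.36, -3.13, -0.60 and -1.89 against -0.15, 0.06, 0.58 and 0.17, and fell by 2.41 ± 0.53 (adjusted p = 0.034). Deficient array 3 lay nearest the wild-type arrays in both, though still below them. Hbb-bt lies in a stretch of neighbouring calls on chromosome 7, where 4 of 14 tested genes were called. The alpha-globin gene Hba-a1, with a difference of -1.84, did not pass (adjusted p = 0.066).

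None of these 3 calls withstood every omission of an old array. Hbb-bt was no longer called without deficient array 1, 2 or 4 or without wild-type array 3 or 4 (adjusted p up to 0.099). Alas2 and Hbb-b2 kept their call in only 1 of the 8 omissions, the one without deficient array 3 (adjusted p up to 0.127 and 0.144 in the others). The list's median level was -1.94, -1.24, -0.09 and -1.37 on the 4 deficient arrays and between -0.05 and 0.19 on the wild-type arrays. The list's median difference was -0.72 without deficient arrays 1 and 2, -0.87 without 1 and 4, and -0.38 after normexp background correction. Of 15 neutrophil and platelet genes 2 fell, beside 0.558% of all genes tested, and 13 differences were negative. The median was -0.58, and it was -0.29 without wild-type array 1, -0.18 without deficient arrays 1 and 2 and -0.22 after normexp background correction. The 2 that fell were Gp9, part of the platelet receptor of von Willebrand factor (-1.18 ± 0.23), and Ppbp, the platelet basic protein (-2.37 ± 0.48). The Ppbp call went on leaving out deficient array 1, 2 or 4 or wild-type array 1 or 4 (adjusted p up to 0.0768). Gp9 lost its call without deficient array 2 or wild-type array 2 or 4 (adjusted p up to 0.0686). It lies with Nat8 in a stretch of chromosome 6 where 3 of 45 tested genes were called. How much blood each brain held was not given in the sources used here, and its part in these falls was not tested.

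Hbb-bt and Alas2 moved together over the old arrays, and the 250 bases before their RefSeq start sites (GRCm38.p6) are shown to print the red cell promoter elements beside the values. Capitals mark matches on either strand to GATAA, the core that Gata factors bind, to CACCC, bound by Klf1 and its relatives, to the CCAAT box and to the core promoter element TATAAA.
Hbb-bt (chr7:103813924-103814173, minus strand): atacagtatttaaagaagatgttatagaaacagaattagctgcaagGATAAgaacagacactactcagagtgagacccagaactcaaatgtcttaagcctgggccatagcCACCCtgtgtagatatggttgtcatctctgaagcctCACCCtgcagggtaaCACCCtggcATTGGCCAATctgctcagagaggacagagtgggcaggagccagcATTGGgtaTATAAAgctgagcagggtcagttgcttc
Alas2 (chrX:150547167-150547416, plus strand): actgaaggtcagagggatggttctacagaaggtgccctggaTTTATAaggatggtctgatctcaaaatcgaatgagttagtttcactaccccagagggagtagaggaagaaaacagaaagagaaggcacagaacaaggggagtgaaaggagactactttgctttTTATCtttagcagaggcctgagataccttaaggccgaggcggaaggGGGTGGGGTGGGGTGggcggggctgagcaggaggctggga
Both promoters held 1 GATAA and 3 CACCC matches (the 3 of Alas2 adjoin each other on the opposite strand) and 1 TATAAA, which lay 28 bases before the Hbb-bt start and 209 before that of Alas2. Hbb-bt held 3 CCAAT matches, of which 2 adjoin as ATTGGCCAAT, and Alas2 held 0. Of 32851 promoters of the same length, 22.6% held a match to GATAA, 33.8% held the CCAAT box, 52% held a match to CACCC and 12.4% held the element TATAAA, so single matches are common and a match is only a description of the letters.

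Chemokine genes moved in both directions. Of 36 tested, Ccr6 rose and 5 ligands fell (Ccl9, Ccl19, Cxcl5, Ppbp and Ccl28), with a median over the list of -0.03. Across all tested genes 0.913% rose and 0.558% fell. Ccl9 fell by 1.18 ± 0.15 (adjusted p = 0.00083), from -1.52, -1.77, -1.92 and -1.62 in wild type to -2.57, -3.24, -2.92 and -2.82. Cxcl5, which draws neutrophils, fell by 2.41 ± 0.39 (adjusted p = 0.0041), from -2.36, -2.25, -1.23 and -3.01 to -4.44, -4.71, -3.80 and -5.53. Both ligands were dim in every group, and the genotypes did not overlap in either. Ccl19, a ligand of Ccr7 in lymphoid tissue, fell by 1.25 ± 0.19, and its 2 other probes differed by -1.0 and -0.59. Ccl28 differed by -2.08 and lost its call without deficient array 2, 3 or 4 or wild-type array 1, 3 or 4 (adjusted p up to 0.146). Cxcl5 and Ppbp are neighbours on chromosome 5, and Ccl19 lies in the same stretch of chromosome 4 as Fam205a2.

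Hox genes, transcription factors that mark hindbrain and spinal cord in the adult nervous system, mostly read higher in old deficient brain. Of 20 tested 6 rose (Hoxb5, Hoxc4, Hoxb3, Hoxb4, Hoxa3 and Hoxa5), 0 fell and 18 had a positive difference, with a median of 2.01. Among all genes tested 0.913% rose and 51.3% had a positive difference. Only 2 of the 20 were well above background on all 8 old arrays, so these differences rest largely on dim values. The median was 0.48 after normexp background correction, 0.77 in the deposited value table and 1.41 without deficient arrays 1 and 2. Hoxb5 read -0.58, -1.18, -2.37 and -2.10 in deficient brain and -3.21, -7.88, -7.92 and -6.77 in wild type. It rose (adjusted p = 0.0065), but the fitted difference of 4.89 takes in 3 wild-type values at background and is no measured fold. Wild-type array 1 was the only old wild-type array on which these 6 probes were well above background, and it lay closest to the deficient arrays in each. Hoxb5 kept its call in all 8 omissions of an old array and lost it in the fit to the 8 old arrays alone and without deficient arrays 1 and 2 or 1 and 4 (adjusted p up to 0.158). The probe of Hoxb3 shares a run of bases with that of Nkx1-1. The other 5 genes kept their call in 1 or 2 of the 8 omissions, always including the omission of wild-type array 1, with adjusted p up to 0.146. Over the list the median level was 0.42, 0.18, -0.30 and -0.48 on the deficient arrays and -0.67, -2.28, -2.95 and -2.44 on the wild-type arrays. Of 20 cerebellar genes 0 were called, beside 1.47% of all genes tested, and their median was 0.04. How far caudally each brain was cut was not given in the sources used here, and its part in the Hox levels was not tested.

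**Figure D2:**
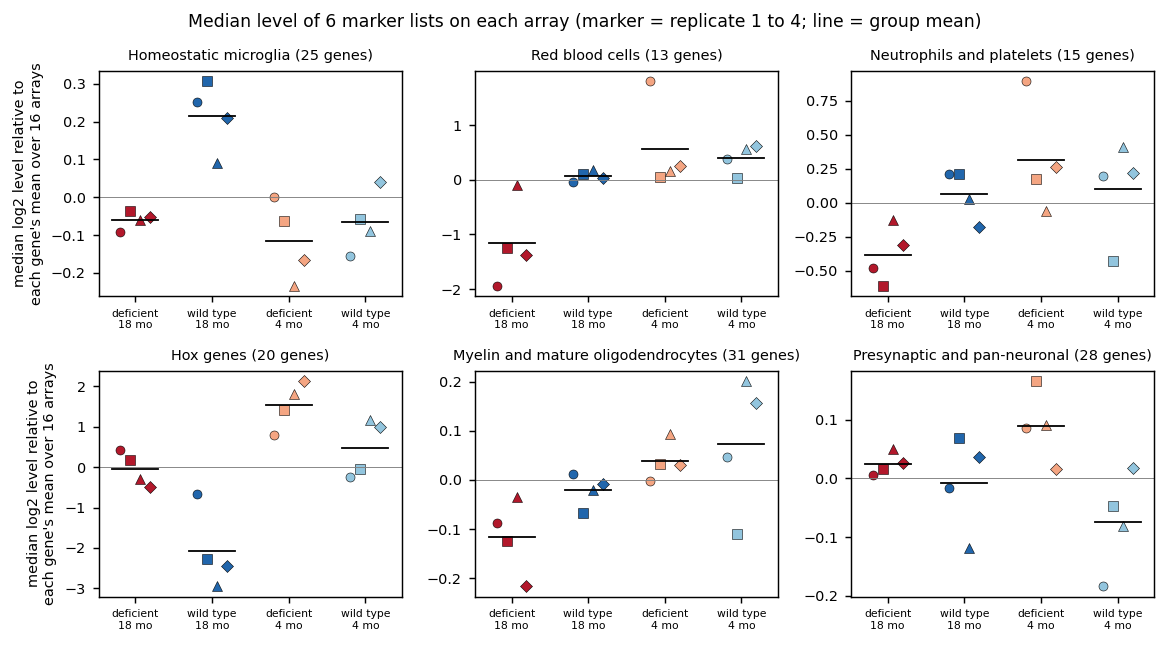
The vertical axis gives, for 6 marker lists, the median over genes of the log2 level relative to each gene's mean over 16 arrays; points are single arrays (shapes 1 to 4 are replicates) and lines are group means, by genotype and age. Old wild-type arrays are the highest for microglia (0.09 to 0.31), 3 old deficient arrays are far below the rest for red blood cells (-1.94 to -1.24), and 3 old wild-type arrays are the lowest for Hox genes.

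Myelin and astrocyte genes showed single changes. Of 31 myelin genes Mobp, a structural protein of compact myelin, rose, while Opalin and Il33 fell, and the median was -0.11 with 21 negative differences. For comparison, 0.913% of all genes tested rose and 0.558% fell. The Mobp call depended on which probe was read. The probe at base 3226 read 5.58, 5.37, 5.19 and 5.42 in deficient brain against 4.35, 4.24, 4.49 and 4.61, a rise of 0.97 ± 0.13 (adjusted p = 0.001). Probes at bases 222 and 1404 differed by -0.01 and 0.27, and averaging the gene's probes left the gene uncalled (adjusted p = 0.074). Opalin and Il33 differed by -0.54 and -0.56 and kept their call in 2 and 1 of 8 omissions. Of 20 astrocyte genes the connexin Gjb6 alone was called, a rise of 0.45 ± 0.08 (adjusted p = 0.0097), and of 28 reactive astrocyte genes Timp1 and Aspg rose. Aspg kept its call in 2 of 8 omissions and lost it under median scaling and with the old arrays alone. Gjb6 kept its call in all 8 omissions but also lost it under median scaling and with the old arrays alone. The Gjb6 call was lost without deficient arrays 1 and 2 or 1 and 4 as well (adjusted p up to 0.234).

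Probes of Stmn1 and Ocel1 differed in the same manner as those of Mobp. Stmn1, which takes apart microtubules and is high in neuroblasts, fell by 1.17 at the probe at base 996, and the probe at base 656 differed by -0.01. The called probe shares a run of bases with that of Gm11223, so the transcript it reads is uncertain. Ocel1 rose by 2.44 at base 1060 and differed by -0.99 at base 5227. In these 3 genes the called probe is the one whose 60 bases hold the polyadenylation hexamer AATAAA, so 30-base stretches of the called and uncalled probes are shown, with the hexamer in capitals. All 7 lie on the plus strand.
Mobp at 3226, called (chr9:120085150-120085209, mm9): taacaagaactcAATAAAtacttgctgact
Mobp at 222 (chr9:120077006-120077065, mm9): caactccaagcgtgagatcgtggaccgcaa
Mobp at 1404 (chr9:120078400-120078459, mm9): cgtatctaaggttgacttcaaacttataaa
Stmn1 at 996, called (chr4:134029695-134029754, mm9): acttgaatggttAATAAActgcacagtgct
Stmn1 at 656 (chr4:134029355-134029414, mm9): ctgtactggccagtgtcctttactttccct
Ocel1 at 1060, called (chr8:73896997-73897056, mm9): gttcttccagggAATAAAcatggattagac
Ocel1 at 5227 (chr8:73903201-73903260, mm9): agattaaaacccataaacctgtaagttctt
The 3 genes were chosen after their values were seen. AATAAA was no more frequent in called probes as a whole, at 14.4% of 340, than in the probes of all tested genes, at 14.2%. Of 78 called genes with other kept probes, 33 had another probe called in the same direction and 0 had one called in the opposite direction. In 64 of the 78 all other probes had the sign of the called one.

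A pair of kallikrein probes shows how near copies limit a name. Klk1b22, of the tissue kallikrein protease cluster on chromosome 7, differed by 3.96 ± 0.93, with deficient levels of -5.35, -0.34, -1.43 and -1.43 and wild-type levels of -6.66, -6.62, -4.36 and -6.76. Its call went on leaving out deficient array 2, 3 or 4 or wild-type array 1, 2 or 4 (adjusted p up to 0.169). The probe shares a run of 22 bases, in capitals, with that of Klk1b3.
Klk1b22 (chr7:51371648-51371707, mm9): atgtCATGCTGTGTGCAGGAGAGATGaatg
Klk1b3 (chr7:51457064-51457122, mm9): gatgcCATGCTGTGTGCAGGAGAGATGgaa
Dynlt1c and Dynlt1f, copies of a dynein light chain, and Tmem181a lie in a duplicated stretch of chromosome 17, so their rises of 1.84, 1.53 and 1.49 may share transcripts.

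No gene was called in the lists of the transporter's own pathway, beside 1.47% of all genes tested. At that share, lists of 12 to 35 genes hold few or no calls, so 0 calls say little about the pathway. Of 12 other monocarboxylate transporters and partners 0 were called, with differences between -0.29 and 0.30 and a median of 0.03. The proton-coupled carriers Slc16a1, Slc16a7 and Slc16a3 differed by -0.09, 0.01 and 0.01, and their chaperone Bsg by -0.09. Of 21 enzymes of lactate, pyruvate and ketone body use 0 were called. Pdk4, a kinase that shuts off pyruvate dehydrogenase, differed by 0.40 (adjusted p = 0.065), and Bdh2, of the hydroxybutyrate dehydrogenase family, by 0.42 (adjusted p = 0.22). None of 20 glycolysis genes, 35 nuclear-encoded respiratory chain genes or 27 histone acetylation genes was called, with medians of -0.01, 0.02 and 0.02, each gene read by its brightest probe. The histone deacetylase Hdac1 differed by -0.37 at that probe, but its 2 other probes, at transcript bases 1543 and 1732, fell by 1.33 ± 0.25 and 2.0 ± 0.32 (adjusted p = 0.012 and 0.00425 in limma's fit to all kept probes). At an unadjusted p under 0.05 in limma the counts in those 5 lists, in the order given, were 1, 3, 1, 0 and 1, beside 9.91% of all genes tested. Synaptic lists, of similar length, had 0 calls too, among 28 presynaptic, 34 glutamatergic and 30 inhibitory genes (3 each at an unadjusted p under 0.05). Their medians lay between -0.05 and -0.02, and 0 calls again say little.

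Some called genes were neighbours on a chromosome. Of 333 called genes placed on chromosomes, 134 lay in 24 stretches of 3 or more calls within 2 Mb, whose ends are those of the called genes themselves, and 199 (59.8%) lay outside them. Chromosome 17 had 37 called genes, 3.14% of its 1180 tested, chromosome 9 had 2.95%, chromosome 8 had 2.31% and chromosome 4 had 2.27%, beside 1.47% overall. On chromosome 17, 15 of 53 tested genes between 6.289 and 9.201 Mb (mm9, probe starts) were called. They include Tmem181a, Dynlt1f, Dynlt1c, Ttll2 and Ccr6, and 12 of the 15 were higher. On chromosome 4, 9 of 38 were called between 41.78 and 43.68 Mb, where Fam205a2, Ccl19 and Creb3 lie, 8 of them lower, and 10 of 106 between 131.9 and 135.9 Mb. On chromosome 8, 12 of 139 were called between 71.43 and 74.95 Mb, among them Lpl, Zfp963, Il12rb1 and Ocel1. On chromosome 10, 6 of 18 were called between 91.54 and 93.61 Mb, among them Ntn4, Nedd1 and Fgd6, the stretch of these 5 with the highest share (33.3%).

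Chromosome 9 held 26 called genes in stretches of neighbouring calls between 40 and 58 Mb, 11 higher and 15 lower. By stretch, 6 of 17, 7 of 38, 9 of 35 and 4 of 31 tested genes were called. Calls outside the stretches were left out of the 26. Among those that fell were Tmem25 (-1.94 ± 0.32), Ccdc153, a cilia gene (-1.73 ± 0.31), Bco2, which cleaves carotenoids (-1.71 ± 0.29), Rpp25, a subunit of ribonuclease P (-1.64 ± 0.23), Nnmt, which methylates nicotinamide (-1.49 ± 0.27), and Cryab, a small heat shock protein (-1.17 ± 0.17). Pts, of tetrahydrobiopterin synthesis, fell by 1.07, Sc5d, of cholesterol synthesis, by 0.64, and Ppcdc, of coenzyme A synthesis, by 2.93. The Ppcdc probe was not well above background on every array of the series. Over the alternatives that tested it, its difference ran from -3.63 to -0.71. Its call was lost after normexp background correction, with the old arrays alone and without deficient arrays 1 and 2 (adjusted p up to 0.163). Sorl1, a sorting receptor of the amyloid precursor protein, and Zbtb16, a transcriptional repressor, rose by 0.82 and 0.91. A second Sorl1 probe differed by -0.25. Zbtb16 was not called without deficient array 2 or wild-type array 2 or 4.

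**Figure D3:**
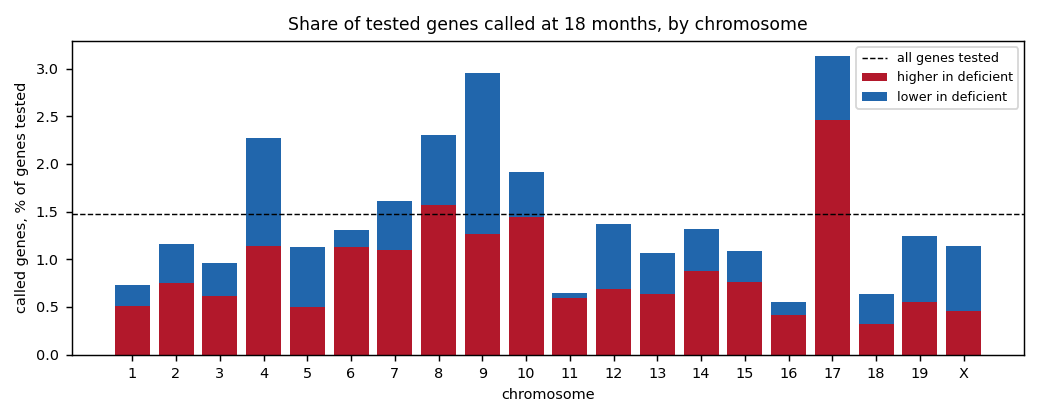
Bars give, for each chromosome on the horizontal axis, the percentage of its tested genes called at 18 months (red, higher in deficient brain; blue, lower), and the dashed line is the 1.47% of all tested genes. Chromosomes 17 and 9 stand highest, at 3.14% and 2.95%, and chromosome 17 is mostly higher calls.

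Calls were more frequent within 5 and 10 Mb of Slc5a8 on chromosome 10 than over all genes. Within 2 Mb of its probe 0 of 31 tested genes were called (0 at 4 months as well, in the same limma fit). With 1.47% of all genes called, 31 genes are too few to show that calls were rarer there. Within 5 Mb 5 of 83 were called (6.02%), all higher, and within 10 Mb 12 of 293, or 4.1%, beside 1.47% of all genes. The nearest called gene lay 3.15 Mb away, where the stretch from 91.54 to 93.61 Mb begins. Of the 12, 11 were called at 4 months too.

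The 4 old deficient brains were not alike within these stretches. For each called gene the deficient array nearest to the wild-type mean was found, in whichever direction the gene differed. On chromosome 9 it was array 4 in 25 of 26 genes, and the median shift of array 4 was 70.8% of the gene's mean shift against 113% to 116% for the other 3. Tmem25 read 1.48, 1.39, 1.60 and 3.31 in deficient brain and between 3.73 and 4.04 in wild type. Bco2 read -3.77, -3.51, -3.69 and -2.01 against -1.81 to -1.31. Array 4 thus lay between its group and the wild-type arrays in both genes. On chromosome 10, between 91 and 94 Mb, it was again array 4, in 6 of 6 genes, with 77.6% of the mean shift.

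A different array stood out elsewhere. On chromosome 4, between 131.9 and 135.9 Mb, array 1 was nearest in 10 of 10 genes with a median of 56.8% of the mean shift, against 114% to 118% for the others. Stmn1 read 6.56 on array 1 and 5.75, 5.83 and 5.77 on the others, with wild type between 6.93 and 7.30, and Snhg3 read 1.09 on array 1 and 0.24, 0.20 and 0.19 on the others. On chromosome 17 arrays 2 and 3 were the nearer pair in 13 of 15 genes, and on chromosome 8 arrays 1 and 4 in 8 of 12. Between 41 and 44 Mb of chromosome 4, where Fam205a2 lies, the 4 deficient arrays were close to each other (medians of 93.7% to 106%). Of the 199 called genes outside the 24 stretches of neighbouring calls, arrays 1 to 4 were nearest in 22.6%, 17.6%, 39.2% and 20.6%. The nearest of the 4 wild-type arrays varied on chromosome 9 (4, 4, 12 and 6 genes). Neighbouring genes shared 4 brains and were chosen by their call, so these counts are a description made after the values were seen, and their cause was not tested.

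**Figure D4:**
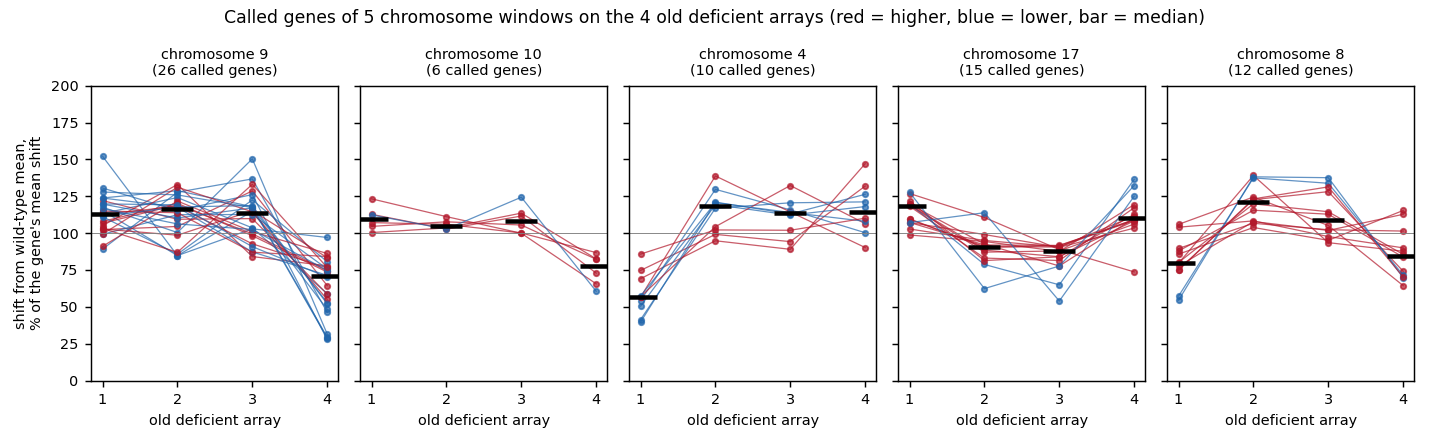
Each line is 1 called gene and each point an old deficient array (horizontal axis), with the vertical axis giving its shift from the wild-type mean as a percentage of the gene's mean shift; red genes were higher and blue genes lower, and black bars are medians. The lines dip at array 4 on chromosomes 9 and 10 (medians of 70.8% and 77.6%) and at array 1 on chromosome 4 (56.8%).

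The same genotypes were compared at 4 months on other animals, though on the same 2 slides. There 359 genes were called (1.55% of those tested), and 101 were called at both ages, which is 29.7% of the 18-month calls and 28.1% of the 4-month calls. Of the 101, 95 had the same sign. Zfp963, Ntn4, Ccr6, Ocel1, Fxyd2 and Itga9 differed by 3.12, 2.08, 2.51, 2.76, 1.70 and 1.75 at 4 months beside 2.89, 1.82, 2.72, 2.44, 1.58 and 1.5 at 18 months. Among the falls, Tmem25, Bco2 and Ppcdc differed by -2.39, -2.13 and -3.50 at 4 months. The Ppcdc probe was not well above background on every array, so the size of its difference is uncertain. All 6 called genes of the chromosome 10 stretch were called at both ages, 8 of the 12 on chromosome 8 were, but only 4 of the 15 on chromosome 17 and 1 of the 10 on chromosome 4 between 131.9 and 135.9 Mb. Of the 239 called only at 18 months, 170 had the same sign at 4 months.

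Old deficient and young wild-type arrays lay in row 2 of their slides, and old wild-type and young deficient arrays in row 1. The interaction of genotype and age tested which differences were unlike between the ages, and it cannot be told apart from slide row. It was called for 44 genes (0.19% of those tested), of which 32 were also called at 18 months and 25 of these not at 4 months, while 7 were called at both ages. Fam205a2 had an interaction of -3.39 ± 0.22 (adjusted p = 6e-07). Tmem181a differed by 1.49 at 18 months and 0.34 at 4 months, and Dynlt1c by 1.84 and 0.59. Upk3bl, a uroplakin relative, read -2.91, -2.69, -2.66 and -2.84 in old deficient brain, -4.25, -5.05, -4.93 and -4.54 in old wild type and between -4.82 and -3.90 in the 8 young brains. Old deficient brain had the highest mean of the 4 groups for Upk3bl, Nat8, H1f2, Inhba, Mobp and Gjb6, in each of which the 4-month difference was between -0.28 and 0.38 and not called. Duxbl2, a double homeobox gene, was higher in deficient brain at 18 months (1.18) and lower at 4 months (-1.39), with an interaction of 2.57 (adjusted p = 0.0024). Its call at 18 months was lost without deficient array 3 or 4 or wild-type array 4 (adjusted p up to 0.0698).

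The age comparisons share the old arrays with the genotype comparison, and their values are given side by side only. Within each genotype age went with slide row, in opposite order in deficient and wild-type mice. Age and slide row therefore cannot be told apart in these values. Between 4 and 18 months 98 genes were called in wild type (0.424% of those tested) and 552 in deficient brain (2.39%). The median difference by age of the microglia list was 0.26 in wild type and 0.04 in deficient brain, that of the Hox list -2.87 and -1.54, and that of the red blood cell list -0.23 and -1.64.

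Of 4 genes known to differ between C57BL/6 substrains, the wild-type groups of the 2 ages were apart at Wdfy1 and Nnt. Entpd4 read 3.88 in old and 3.84 in young wild type on average, and Entpd4 and Ide were called at neither age. Wdfy1, a phosphoinositide-binding adaptor, read 0.37, 0.46, 0.24 and 0.03 in young wild type but between 2.29 and 2.61 in old wild type and between 1.67 and 2.67 in the 8 deficient brains. It was called at 4 months (2.19) and not at 18 months (-0.15 ± 0.18, adjusted p = 0.917). Nnt, the mitochondrial nicotinamide nucleotide transhydrogenase, read 1.26, 1.60, 1.41 and 0.96 in young wild type and 2.51, 1.92, 2.52 and 2.48 in old wild type, beside 1.79, 1.88, 2.42 and 2.41 in old deficient brain. Young wild type had the lowest mean of the 4 groups in Wdfy1 and Nnt, and old wild type lay with the deficient brains. The part of strain background in the genotype differences was not tested.

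**Figure D5:**
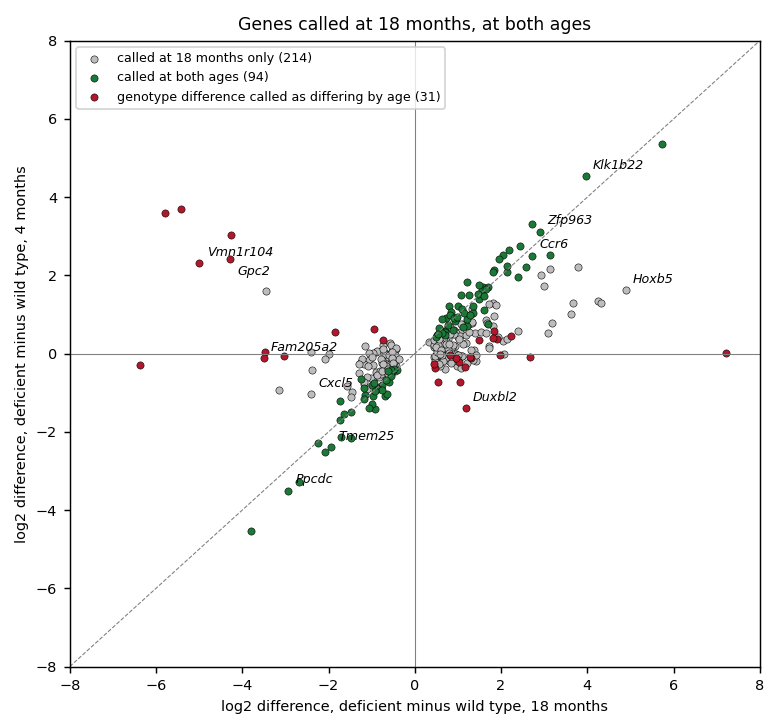
Each point is a gene called at 18 months, with the log2 difference (deficient minus wild type) at 18 months on the horizontal axis and at 4 months on the vertical axis; the dashed line marks equal differences. Green genes (94) were called at both ages and had no called interaction of genotype and age, so their closeness to the line is partly set by that choice. Genes called at both ages with a called interaction are red. Red genes, whose difference was called as differing between the ages, lie away from the line. Some have a 4-month difference of the same sign (Dynlt1c) and some of the opposite sign (Duxbl2).

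Other lists held 1 or 2 called genes each. Gpr17, a receptor of newly forming oligodendrocytes, differed by -0.58, Fabp7, of olfactory ensheathing glia and radial glia, by -0.81, Atf3, of the stress response, by -0.76, and the proteoglycan Gpc2, well above background on 1 of the 4 old deficient arrays, by -4.28. These calls were kept in 3, 1, 0 and 3 of the 8 omissions of an old array. None of 22 complement genes, 23 antigen presentation genes, 43 interferon-stimulated genes, 24 endothelial genes or 24 choroid plexus genes was called, beside 1.47% of all genes tested. At an unadjusted p under 0.05 in the limma fit the counts were 6, 2, 7, 3 and 0, beside 9.91% of all genes tested. Of 22 forebrain genes 19 had positive differences, beside 51.3% of all genes tested, with a median of 0.13 and 0 calls. Of the 120 named genes called at 18 months, 60 kept their call when each of the 8 old arrays was left out in turn.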

How the data were processed

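Whole-brain RNA of 16 male mice was measured on one-colour Agilent arrays. Per the file headers, the authors' scanner files hold linear spot intensity read by Agilent Feature Extraction 10.7.3.1, background-subtracted and detrended, with no scaling between arrays, and probe coordinates of mm9 (NCBI37). A deposited value table holds log2 values of unstated scale (medians between 6.606 and 6.622) that ranked probes as the raw median intensity did. It served as an alternative only. Limma is named in the submitters' processing notes, with no version.

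Log2 of the processed intensity minus the array's 75th percentile was taken over 59305 non-control spots. Outlier spots (98 to 182 per array) were left out, 0 were saturated, and spots of a probe were averaged. Probes well above background on each of the 4 arrays of some group were kept, leaving 33071 of 55681 probes. The brightest kept probe stood for each gene, giving 23121 genes, 7801 of them with clone or model names. RefSeq's gene table, used for names only, held the accession of 27509 out of 29150 probes that carry one. Promoters are RefSeq's (GRCm38.p6).

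A 4-group means model was fitted to all 16 arrays with limma 3.58.1 (R 4.3.3, with version 1.17.8 of the data.table package), with 12 residual and 2.84 prior degrees of freedom. P-values were adjusted over all genes (Benjamini-Hochberg), with a threshold of 0.05. The fit was tested on simulated data. The p-values reflect spread among these samples, and the number of arrays limits the precision. Figures were drawn with matplotlib 3.10.9.

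The comparison and the gene lists were chosen with earlier results of these data known, so list counts are descriptions. Named genes were the 20 largest rises and 20 largest falls among called, symbol-bearing genes that were bright on all 8 old arrays and did not overlap, the 10 smallest p, up to 8 bounded folds a direction, called list members (up to 6, or the 2 of smallest p), up to 10 called interactions, called genes of windows with 3 or more calls within 2 Mb, and Slc5a8. Of the genes that these rules and lists take in, 2 are not reported here. They were left out of the lists and figures and stays in the counts over all genes. Alternatives were background correction, normalization, filters, probe choice, the old arrays alone, a replicate block, array weights and leaving out arrays.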

Additional observations from a re-analysis of the deposited data

Results flagged for a closer look

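Among 126 groups of 4 arrays checked, 7 held 1 array far from the other 3 by Dixon's criterion, and chance alone gives about 1 in 20 such groups. In old deficient brain, array 4 read -2.01 for Bco2, 0.45 for Rpp25 and 3.31 for Tmem25, each on the wild-type side of the other 3 arrays. Array 1 read 1.09 for Snhg3 and 6.56 for Stmn1, again on the wild-type side, and array 3 read -0.30 for Lbx1, on the far side. In old wild-type brain array 2 read -5.88 for H60b against -7.56 to -7.34 on the others. The first 5 genes lie on chromosomes 9 and 4, in stretches of neighbouring called genes.

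The interaction term cannot be told apart from slide row. By this term the genotype difference differed between the ages for 14 named genes, with 18 months minus 4 months given here. It was higher at 18 months for Duxbl2 (2.57), Clspn (1.78), Upk3bl (1.54), Per2 (1.46), H1f2 (1.36), Dynlt1c (1.25), Inhba (1.23), Tmem181a (1.15), Mobp (1.08), Nat8 (0.86) and Gjb6 (0.73). It was lower for Fam205a2 (-3.39), Gpc2 (-6.70) and Vmn1r104 (-7.31). The fitted sizes for Clspn, Gpc2 and Vmn1r104 are not measured values: Clspn was well above background on 0 of 4 old wild-type arrays, Gpc2 on 1 of 4 old deficient and 1 of 4 young wild-type arrays, and Vmn1r104 on 0 of 4 arrays in both of those groups. Per2, a core clock gene, was called at 4 months (-1.01) and not at 18 months (0.45).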

How the results depend on the processing

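Of the 340 called genes, 1 changed sign, under the mean of a gene's probes (an unnamed transcript of chromosome 5), and none changed sign under the other alternatives that tested them. Most calls were lower under the median scaling. Against 340 called genes (211 higher, 129 lower) and 44 interactions, normexp background correction gave 236 (128 higher) and 29 interactions, no filter on dim probes gave 226 (80 lower) and 22, and array weights gave 706 (413 and 293) and 822. Quantile normalization, the median scaling, the deposited table and the old arrays alone gave 340, 310, 369 and 296. Same-numbered arrays did not deviate together (correlations -0.00554, 0.0847, 0.0386 and 0.15), so numbers were not taken as pairs. With the replicate block 235 genes were called (154 and 81) and 25 interactions. Leaving out 1 of the 8 old arrays or young deficient array 1, the omissions run, gave 179 to 521 called genes, 115 to 310 higher, 64 to 211 lower and 25 to 66 interactions, lowest without old deficient array 2 and highest without young deficient array 1. The counts were 208 without old deficient array 4 and 210 without old wild-type array 4. In alternatives chosen after seeing the data, 95 were called (65 and 30) with 24 interactions without old deficient arrays 1 and 2, the lowest for Hbb-bt and Alas2, and 160 (99 and 61) with 26 without arrays 1 and 4, the lowest in the red blood cell median, from fewer arrays. For Slc5a8 the omissions gave -0.71 to -0.31. Of 120 named called genes, 27 stayed called under every alternative that tested them, among them Zfp963, Ccr6, Ntn4, Fam205a2, Ly86, Trem2 and Ccl9. Of 1029 list medians 61 moved beyond the spread. The cause of these changes was not tested. Probes below background, Slc5a8 among them, have only a bound.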
